A study of Caenorhabditis elegans with 2 samples.

Results

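The starts of small nucleolar RNA (snoRNA) genes were examined for recovery of CEH-82, a homeodomain protein, in Caenorhabditis elegans larvae. All 346 genes of biotype snoRNA on the nuclear chromosomes of the Ensembl release 115 annotation were taken, out of 46890 annotated genes of any biotype. A window from 500 bp upstream to 100 bp downstream of each start was scored by the peak summits that lay in it. By position, 183 snoRNA genes lay inside a protein-coding gene on the same strand (hosted), 33 lay inside one on the opposite strand, and 124 lay outside all protein-coding genes (intergenic). The other 6 overlapped a protein-coding gene in part and entered only the totals. Of the hosted genes, 150 lay wholly in an intron of an annotated transcript and 40 met an exon of one, some doing both. For the opposite-strand genes these counts were 28 and 6.

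The data are chromatin immunoprecipitation with sequencing (ChIP-seq) of whole L3 larvae of both sexes from strain OP212, genotype unc-119(ed3) III; ddEx58. ddEx58 is the transgene, and the protein precipitated was CEH-82 fused to eGFP, a green fluorescent protein. There were 2 samples, biological replicates 1 and 2 of a single group, and no other condition or strain was analysed here. No source used here names the promoter that drives the transgene, and whole worms do not show in which cells the protein was recovered. The deposited lists on ce11 (assembly WBcel235) were a short list of reproducible peaks, the candidates called on both replicates pooled (30000 entries), and those of replicate 1 (30000) and replicate 2 (22611). Candidate lists mix peaks with background. The signal value is the authors' own number per peak, on a scale not given, and it was read only within a list. The depth of the libraries is unknown.

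snoRNAs guide the chemical modification of ribosomal RNA in the nucleolus. Those with boxes C and D direct 2′-O-methylation by the fibrillarin complex, and those with boxes H and ACA direct pseudouridylation by the dyskerin complex. Many animal snoRNAs lie in introns and are released from the spliced intron of the host transcript, while others are transcribed from promoters of their own. tRNA genes, by contrast, are transcribed by RNA polymerase III through internal elements named box A and box B.

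The stretches before 10 snoRNA genes with a reproducible peak are shown first, because the 4 short words in capitals recur there, and an 11th is shown that lacks them. Each runs 5′ to 3′ on the gene's strand from 120 bases before the start to the 20th base of the gene, 140 bases in all, from the RefSeq WBcel235 genome (ce11). The 4 words were picked after the sequences of the 44 genes with a peak had been read, so their counts among those genes are a description and support nothing. GTGGCNNAG is a form of box A and GTTCNANNC covers the core of box B, as known from tRNA genes. GGAACNCG and TGTCGGC are called the spaced words here, and no factor is assigned to them. Capitals mark a match to any of the 4 on either strand. Genes with the box words in capitals came from all 3 classes, T03F7.8 (opposite strand), F32E10.10 and W03C9.9 (intergenic), and Y43F8C.22 and C51F7.3 (hosted). The T03F7.8 stretch is chrV:11314138-11314277, plus strand. The F32E10.10 stretch is chrIV:7574002-7574141, plus strand. The Y43F8C.22 stretch is chrV:19643168-19643307, minus strand. The W03C9.9 stretch is chrII:11960778-11960917, plus strand. The C51F7.3 stretch is chrV:12303588-12303727, plus strand.
T03F7.8: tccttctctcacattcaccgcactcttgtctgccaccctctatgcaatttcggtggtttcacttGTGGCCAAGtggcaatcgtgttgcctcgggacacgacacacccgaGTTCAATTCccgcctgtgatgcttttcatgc
F32E10.10: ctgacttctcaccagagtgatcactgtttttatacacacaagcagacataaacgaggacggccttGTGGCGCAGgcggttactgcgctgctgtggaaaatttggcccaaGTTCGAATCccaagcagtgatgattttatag
Y43F8C.22: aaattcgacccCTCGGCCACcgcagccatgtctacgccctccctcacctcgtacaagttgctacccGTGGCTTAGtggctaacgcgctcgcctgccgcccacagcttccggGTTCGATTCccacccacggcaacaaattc
W03C9.9: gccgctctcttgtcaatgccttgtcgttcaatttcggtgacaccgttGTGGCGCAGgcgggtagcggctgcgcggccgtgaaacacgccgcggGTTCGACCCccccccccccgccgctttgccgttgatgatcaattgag
C51F7.3: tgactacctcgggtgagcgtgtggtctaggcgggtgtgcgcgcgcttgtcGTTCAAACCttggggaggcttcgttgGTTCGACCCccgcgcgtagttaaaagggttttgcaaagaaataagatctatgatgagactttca

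Genes with the spaced words were likewise found in each class: Y55F3BR.9 (opposite strand), F43A11.8 and Y53F4B.47 (intergenic), and ZK994.7 and C08D8.3 (hosted). In Y55F3BR.9 and F43A11.8 both spaced words stand on the gene's strand. The Y55F3BR.9 stretch is chrIV:867114-867253, minus strand. The F43A11.8 stretch is chrV:11585342-11585481, minus strand. The ZK994.7 stretch is chrV:8500459-8500598, plus strand. The C08D8.3 stretch is chrV:8348988-8349127, plus strand. The Y53F4B.47 stretch is chrII:15025874-15026013, minus strand.
Y55F3BR.9: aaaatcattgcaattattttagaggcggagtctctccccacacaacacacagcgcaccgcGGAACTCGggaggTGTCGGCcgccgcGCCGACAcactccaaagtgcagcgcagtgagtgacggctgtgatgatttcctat
F43A11.8: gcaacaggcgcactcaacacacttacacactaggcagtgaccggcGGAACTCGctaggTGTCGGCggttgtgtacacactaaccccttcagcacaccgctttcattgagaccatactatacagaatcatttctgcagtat
ZK994.7: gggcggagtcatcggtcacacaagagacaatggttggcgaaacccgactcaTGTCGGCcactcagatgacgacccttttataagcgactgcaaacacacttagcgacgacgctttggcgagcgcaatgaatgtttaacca
C08D8.3: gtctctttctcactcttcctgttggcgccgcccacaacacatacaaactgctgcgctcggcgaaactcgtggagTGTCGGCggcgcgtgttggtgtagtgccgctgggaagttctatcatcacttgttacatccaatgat
Y53F4B.47: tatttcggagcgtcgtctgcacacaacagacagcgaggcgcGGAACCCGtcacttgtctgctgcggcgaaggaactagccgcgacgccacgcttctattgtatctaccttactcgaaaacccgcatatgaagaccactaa

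Y24D9A.9, hosted in the ribosomal protein gene rpl-7A, had a reproducible peak but held none of the 4 words in this stretch, and its summit lay further upstream. The Y24D9A.9 stretch is chrIV:4390289-4390428, minus strand.
Y24D9A.9: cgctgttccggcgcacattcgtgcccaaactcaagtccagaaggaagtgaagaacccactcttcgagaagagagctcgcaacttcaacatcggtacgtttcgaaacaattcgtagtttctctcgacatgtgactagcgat

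A reproducible summit lay in the window of 44 of 346 snoRNA genes, 12.7% (exact 95% interval 9.39 to 16.7). The same call was made for 1.63% of all annotated genes, for 2.37% when piRNA genes were left out, and for 2.39% of protein-coding genes. Among other small RNA genes, the share was 69 of 612 tRNA genes (11.27%, 8.88 to 14.1) and 10 of 129 snRNA genes (7.75%, 3.78 to 13.8). These shares were not tested against each other. The 44 genes held 43 distinct peaks, since C51F7.3 and C51F7.4 share one, and none of these summits lay in the window of an annotated tRNA or snRNA gene. The remaining 302 snoRNA genes had no reproducible summit in the window.

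Candidate summits, which include background, lay at many more of the genes. A pooled candidate summit lay in the window of 148 snoRNA genes, 42.8% against 21.4% of all genes. Replicate 1 alone gave 154, 44.5% against 21.1%, and replicate 2 alone gave 115, 33.2% against 16.5%. All 3 candidate lists held a summit for 79 genes, 22.8% against 6.88% of all genes. None of the 3 did for 154 (44.5%), which was not counted over all genes. Each list was also cut to its strongest entries, as many as the reproducible list has peaks. After this, the pooled list gave the same 44 genes (background 1.63%), replicate 1 gave 41 (11.8%, background 1.6%) and replicate 2 gave 32 (9.25%, background 1.43%). Both replicates had such an entry in the window for 20 genes (5.78%), a count not made over all genes, so no background stands beside it. Each reproducible peak was identical in position to one of the strongest pooled candidates, so these lists are not independent of each other.

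**Figure D1:**
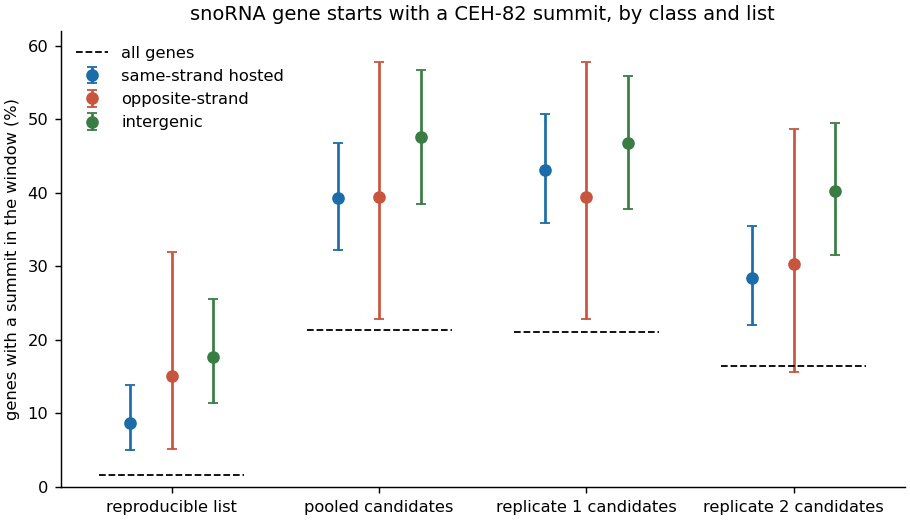
Share of snoRNA genes (vertical axis, %) with a summit in the gene window, for 4 deposited lists and 3 classes; bars are exact 95% intervals and cover counting error only, and dashed lines give the share of all annotated genes. In the reproducible list the classes stood at 8.74%, 15.2% and 17.7%, all above the dashed line at 1.63%, and their intervals overlapped.

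Hosted and independent snoRNA genes both carried peaks. A reproducible summit lay at 16 of 183 hosted genes (8.74%, 5.08 to 13.8), 5 of 33 opposite-strand genes (15.2%, 5.11 to 31.9) and 22 of 124 intergenic genes (17.7%, 11.5 to 25.6). One of the 6 partly overlapping genes, T02E1.9, also had one, with a signal of 30.2. For the test, genes of a class with overlapping windows were joined, which left 164 hosted, 32 opposite-strand and 124 intergenic loci. Peaks lay at 22 of 124 intergenic loci and 15 of 164 hosted loci (9.15%). The difference was 8.60 percentage points (95% interval 0.730 to 17.0), and it did not pass after adjustment over the 3 pairs of classes (two-sided Fisher's exact test, p = 0.0341, adjusted p = 0.102). Intergenic loci exceeded opposite-strand loci (5 of 32, 15.6%) by 2.12 points (−15.0 to 13.8, adjusted exact p = 1). Opposite-strand loci exceeded hosted loci by 6.48 points (−3.81 to 23.0, p = 0.334, adjusted exact p = 0.500). None of the 3 differences passed, and the intervals leave room for gaps well above the measured ones in each pair. These p-values describe loci in these 2 samples, not further worms.

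The difference between intergenic and hosted loci passed the threshold in 2 of 13 alternatives. With the window cut to 250 bp upstream and 50 bp downstream, 19 of 124 intergenic and 10 of 179 hosted loci had a peak, a difference of 9.74 points (adjusted exact p = 0.0165). Without the X chromosome the difference was 11.1 points (adjusted exact p = 0.0491). Taken from the strongest entries of a single replicate, it was 1.14 points without replicate 1 and 3.95 points without replicate 2, with adjusted exact p-values of 0.836 and 0.527. The X chromosome held 23 intergenic and 10 hosted snoRNA genes, and M163.14 was the X-linked one with a peak (1 of 33, 3.03%, 0.0767 to 15.8). Chromosome V had the most, with 15 of 55 (27.3%, 16.1 to 41.0). Chromosomes I to IV stood between 9.26% and 12.2%. The share of all genes with a reproducible summit was 1.42% on V and 2.27% on X, and from 0.614% to 3.71% on I to IV. The chromosomes were not tested against each other.

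Summits sat close to the snoRNA starts. The median position was 42 bp upstream (−42), and 36 of 44 summits (81.8%) lay within 100 bp of the start. Upstream of the start lay 33 of the 44. The window reaches 500 bp upstream but only 100 bp downstream, so a majority upstream is largely set by the window. Among the 479 pairs of a protein-coding gene and a reproducible summit in its window, the median position was −194 bp and 21.5% lay within 100 bp. Both distances are from annotated gene starts, which were not checked against starts of transcription, and the gap was not tested. The widths give the limit of the position: 40 of the 44 genes had a peak 340 bp wide. The mean GC content of the 100 bp around the summit was 53.1% ± 8.93 (SD, n = 16) at hosted genes, 51.2% ± 7.22 (SD, n = 5) at opposite-strand genes and 50.2% ± 6.68 (SD, n = 22) at intergenic genes.

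**Figure D2:**
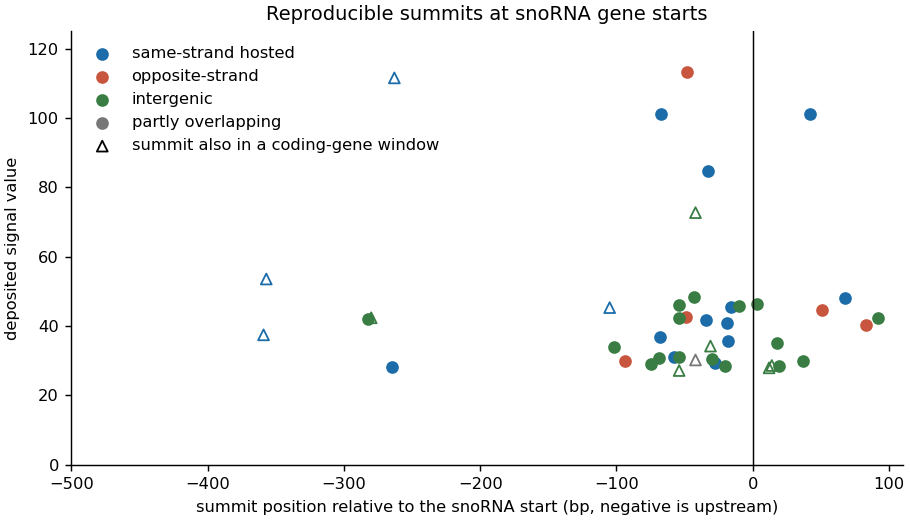
Signal value (vertical axis, the authors' deposited number) against summit position (horizontal axis, bp from the snoRNA start, negative is upstream) for the 44 snoRNA genes with a reproducible peak, coloured by class. Open triangles are summits that also lie in the window of a protein-coding gene, and the summits beyond 250 bp upstream include 3 such hosted genes as well as K02F3.15 at −265 bp and W06H8.17 at −282 bp.

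Among hosted genes, the summits fell into those that also lay at a coding-gene start and those that did not. Of the 16, 4 had a summit that was also in a protein-coding window, and in each case that of the host. The median position of these 4 was −310 bp from the snoRNA start (range −359 to −105). The other 12 had a summit in no protein-coding window, with a median of −30.5 bp (−265 to 68), and 11 of them lay within 100 bp of the snoRNA start. The host's own start had a reproducible summit for 24 of the 183 hosted genes, beside 2.39% of protein-coding genes. The 24 are snoRNA genes and not hosts, and some of them share a host, so the shares were not tested against each other. Of the 24, 4 also had a snoRNA peak, and it was the same summit each time. Where the host's start had none, 12 of 159 hosted genes (7.55%) had a peak.

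The strongest peak at a hosted gene was F54E7.10 in rps-12, which encodes a protein of the small ribosomal subunit. Its signal in the reproducible list was 112, with 81.3 and 28.7 in replicates 1 and 2. The summit lay at −263 bp from the snoRNA start, but at −183 bp from the start of rps-12 and at −110 bp from that of ska-3, so it was not separable from those coding starts. Y24D9A.9 in rpl-7A, a gene for a protein of the large subunit, had 53.6 (38.4 and 15.0 in replicates 1 and 2) at −357 bp. That summit lay −75 bp from the start of rpl-7A and −179 bp from set-21. F39B2.14 in tmem-107 had 45.3 (37.6 and 8.59) at −105 bp, and the same summit lay at −44 bp from the start of tmem-107 and at −413 bp from that of rps-26, a further small-subunit gene. In these 3 genes the summit belonged to a window of the host as much as to that of the snoRNA.

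Ribosomal protein genes are classic hosts of snoRNAs. By name, 21 hosted snoRNA genes lay in 14 ribosomal protein genes, and 3 had a peak: F54E7.10, Y24D9A.9 and H06I04.9 (37.5, in ubl-1, a ubiquitin-ribosomal protein fusion gene). The host start had a reproducible summit for 10 of the 21 snoRNA genes, beside 2.39% of protein-coding genes. The 10 are snoRNA genes and not hosts, and some of them share a host. All 3 genes with a peak were in this group of 10, and all 3 summits were also in the host's window. In that group the snoRNA starts lay from 80 to 752 bp downstream of the host start. Of the 11 whose host start had no reproducible summit, none had a snoRNA peak. Over all hosted genes of that kind the share was 7.55%, at which 11 genes are too few for a lack of peaks to be read from this count.

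A further 5 hosted genes lay 843 to 5690 bp from their host's start. C51F7.3 and C51F7.4, neighbours in frm-7, a gene for a FERM domain protein, shared a summit of signal 101 (69.5 and 31.9 in replicates 1 and 2) in both their windows. The snoRNA starts lay 1224 and 1115 bp into the host, and the summit was at −67 bp from C51F7.3 and at 42 bp from C51F7.4. ZK994.7 in pxn-1, a peroxidasin gene of the extracellular matrix, had 84.8 (59.5 and 22.2) at −33 bp, 5690 bp into the host. C08D8.3 in C08D8.1 had 48.1 (37.7 and 12.3) at 68 bp downstream, and Y43F8C.22 in Y43F8C.7 had 45.5 (35.2 and 14.2) at −16 bp. The summit at C08D8.3 also lay at −491 bp from the start of the non-coding RNA gene C08D8.6. All 5 genes held a summit in both replicates, which the choice of reproducible peaks favours.

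The last hosted genes with a peak had signals from 28.2 to 41.7. Y38F2AR.14 had 41.7 at −34 bp and F01D5.12 had 40.8 at −19 bp. C10C6.8 in catp-8, C16D9.11 in rol-3, C27H6.5 in unc-41 and K11C4.6 in unc-70, the β-spectrin gene, had summits between −68 and −18 bp. K02F3.15 in zip-2, a bZIP factor gene, had the lowest, 28.2 at −265 bp, and its value in replicate 2 was 2.10, rank 21326 of that list.

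The 5 opposite-strand genes with a peak all had summits within 100 bp of the start. None of the 33 windows of this class meets a protein-coding window, so their summits could not be shared with a coding start. T03F7.8, inside cutl-18, a cuticlin-like gene, had the highest signal of any snoRNA gene, 113 (81.0 in replicate 1 and 31.9 in replicate 2) at −48 bp, with rank 33 in the reproducible list. Y55F3BR.9 had 44.5 (25.2 and 17.1) at 51 bp downstream. That summit also lay 2 bp past the start of the non-coding RNA gene Y55F3BR.17, closer than to the snoRNA start. C27H5.9, 277 bp into pdl-1, had 42.6 (27.2 and 14.6) at −49 bp. F07A11.15, inside din-1, a gene for a nuclear receptor corepressor, had 40.4 (18.6 and 19.4) at 83 bp downstream. ZK484.9, inside haf-9, an ABC transporter gene, had 29.8 (24.5 and 5.78) at −94 bp. Its summit also lay 40 bp past the start of the non-coding RNA gene ZK484.10.

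Signals were compared between the classes only as medians, without a test. The median signal was 34.0 (range 27.2 to 72.7) at intergenic genes, 43.5 (28.2 to 112) at hosted genes and 42.6 (29.8 to 113) at opposite-strand genes, against 38.6 over all reproducible peaks. At or above that overall median lay the peaks of 9 of 124 intergenic, 9 of 164 hosted and 4 of 32 opposite-strand loci. Y53F4B.47 led the intergenic genes with 72.7 (54.2 and 17.2) at −42 bp, a summit also −179 bp from cmtr-1, which encodes an mRNA cap methyltransferase. F32E10.10 had 48.4 (33.8 and 12.8) at −43 bp, and T06C12.16 had 46.4 (34.1 and 13.4) at 3 bp past the start. F12F6.11 had 46.2 at −54 bp, with 43.8 (rank 135) in replicate 1 and 4.47 (rank 4662) in replicate 2. T19B4.8 had 45.7 (30.9 and 14.9) at −10 bp. That summit also lay 88 bp past the start of the non-coding RNA gene T19B4.9. The summit of F12F6.11 lay at −495 bp from the start of another, F12F6.17.

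F59C6.15 and F37F2.4 each had 42.4, at −54 and −280 bp, and F25H2.15 had 42.3 at 92 bp past the start. F37F2.4 shared its summit with the coding gene F37F2.2, at −283 bp from its start. The summit of F59C6.15 also lay at −254 bp from the start of the non-coding RNA gene F59C6.19. F59C6.15 and F25H2.15 had a run of 85 identical bases in their upstream stretches, and a read from that run matches both places. F25H2.15 had a summit in replicate 2 (9.23) but none in its window in replicate 1. A second place in the genome, at 95% identity over at least 100 bp, was found for 4 of the 44 genes with a peak. Over the intergenic class, 16 of 22 summits lay in no protein-coding window, and 14 of those 16 lay within 100 bp of the snoRNA start. Some of the 16 lay in the window of a non-coding RNA gene, as that of W06H8.17 did, 66 bp past the start of W06H8.14.

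Most of the 44 genes had a summit in each replicate's own list. The reproducible list keeps peaks that recur between the replicates, so these counts are largely fixed by the choice of genes and add no support. Of the 44 genes, 43 had a summit in the window in replicate 1 (median signal 27.8) and 41 in replicate 2 (median 12.8). Both had one for 40 genes. Each list has its own scale, so values of the 2 replicates are given side by side and not compared in size. The strongest entries of replicate 1, cut as above, held 35 of the 44 and those of replicate 2 held 27. M7.15 was among the strongest entries in replicate 1 (33.7, rank 277) and not in replicate 2 (4.07, rank 6021). F43A11.8 was among them in replicate 2 (16.1, rank 172) and not in replicate 1 (13.03, rank 2126). These last genes were chosen after their values were seen.

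**Figure D3:**
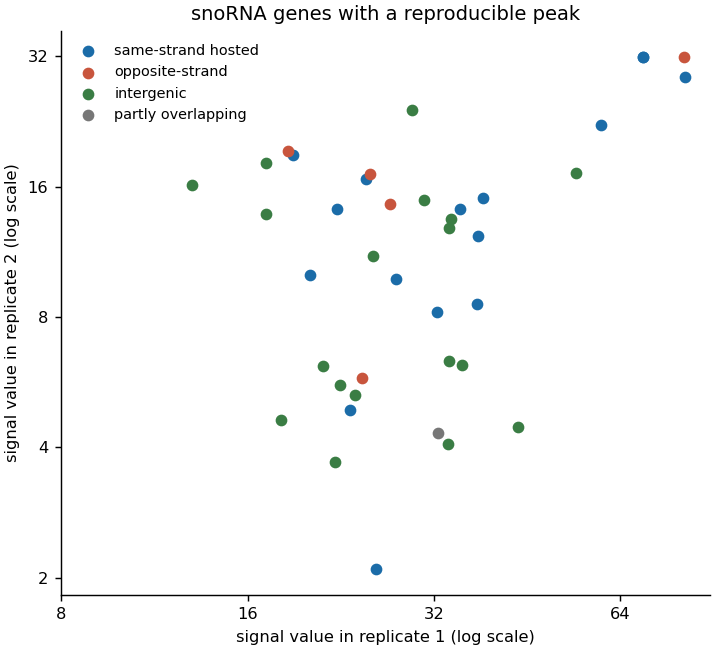
Signal value in replicate 2 (vertical, log scale) against replicate 1 (horizontal, log scale) for the 40 snoRNA genes with a reproducible peak and a summit in both replicates, coloured by class. Values run from 13.03 to 81.3 in replicate 1 and from 2.10 to 31.9 in replicate 2, and the scales of the 2 lists are separate.

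Candidate summits of any strength, those of the 44 genes included, were denser at snoRNA starts than further away in all 3 classes. Per 100 genes and 100 bp, 11.5 pooled summits lay within 100 bp of a hosted start, against 5.70 at 500 to 2000 bp from it. The values were 13.6 against 3.74 at opposite-strand starts and 15.7 against 4.57 at intergenic starts. Replicate 1 gave 11.7 against 5.97, 15.2 against 3.13 and 15.7 against 4.57 in the same order. Replicate 2 gave 9.02 against 4.66, 12.1 against 3.13 and 11.7 against 3.49. The density was higher near the start in every class and list, and the opposite-strand values rest on 8 to 10 summits. No such density was counted around other gene starts, so whether the rise is particular to snoRNA genes was not tested.

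**Figure D4:**
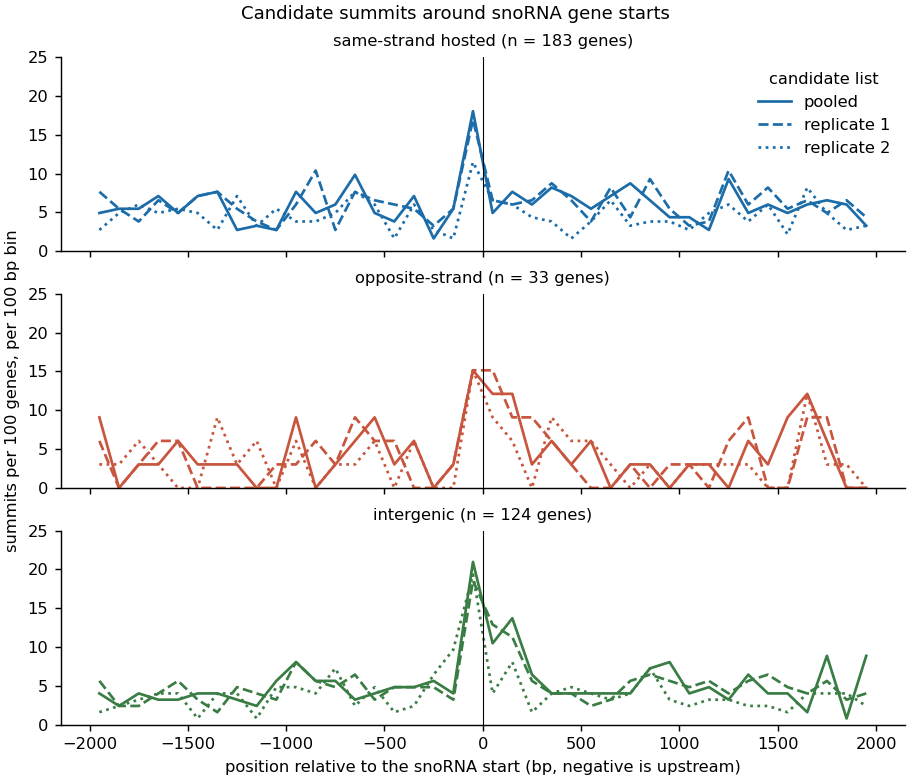
Candidate summits per 100 genes (vertical axis, per 100 bp bin) against position from the snoRNA start (horizontal axis, bp, negative is upstream) for the 3 classes and the pooled, replicate 1 and replicate 2 candidate lists. Each class has its highest values in or next to the bin just before the start, where the pooled list reaches 18.0 per 100 hosted genes.

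Upstream words were then counted in all genes, in the 170 bp from 150 bp before the start to 20 bp into the gene, on both strands. This region first ended at the start and was extended after box B matches were seen to cross it. A box A or box B word without a spaced word was held by 57 snoRNA genes, of which 13 had a reproducible peak (22.8%, 12.7 to 35.8). A spaced word without a box word was held by 36, of which 11 had one (30.6%, 16.3 to 48.1). Y38F2AR.14 alone held both kinds, and it had a peak. None of the 4 words was held by 252 genes, of which 19 had a peak (7.54%, 4.60 to 11.5). Over all annotated genes, 5.89% held a box word alone and 1.53% a spaced word alone, against 16.5% and 10.4% of snoRNA genes. By single word, GTGGCNNAG was held by 1.28% of all genes, 6.94% of snoRNA genes, 7.03% of tRNA genes and 3.10% of snRNA genes. GTTCNANNC was held by 4.86%, 12.7%, 4.58% and 11.6% in the same order. The region ends 20 bp into the gene, so internal elements further inside a tRNA gene were not searched. The tRNA shares therefore do not tell how many tRNA genes hold box A or box B. TGTCGGC was held by 0.964% of all genes and 7.23% of snoRNA genes. As the words were picked from the genes with peaks, no test was made of these shares.

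**Figure D5:**
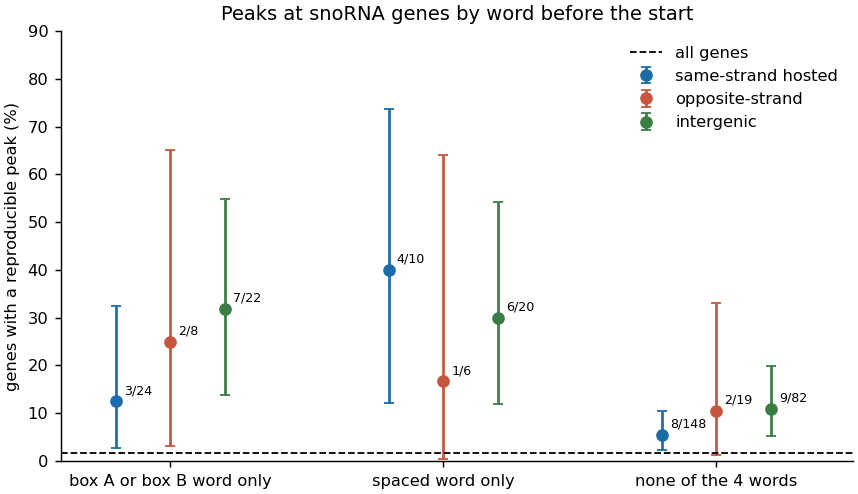
Share of snoRNA genes with a reproducible peak (vertical axis, %), by class, for genes with a box A or box B word only, with a spaced word only, or with none of the 4 words in the 170 bp around the start; bars are exact 95% intervals, numbers give genes with a peak of all genes, and the dashed line is the share of all annotated genes. Genes without a word stand lowest in each class, at 8 of 148, 2 of 19 and 9 of 82, but the intervals are wide and the words were chosen on genes with peaks.

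The arrangement of the words was regular, and it too was seen after the words had been picked. Box A followed by box B on the gene's strand was found at 9 snoRNA genes, with 44 to 46 bp from the start of one word to the start of the other. Box A began 73 to 51 bp before the snoRNA start (−73 to −51) and box B at −27 to −5. Of these 9, 4 had a reproducible peak: T03F7.8, Y43F8C.22, F32E10.10 and W03C9.9. The spaced words followed each other on the gene's strand at 11 genes, 13 bp apart at 10 of them and 57 bp apart at W07G1.23. Of the 11, 6 had a peak, namely Y55F3BR.9, F43A11.8, C16D9.10, F59C6.15, F25H2.15 and F47G4.9. F59C6.15 and F25H2.15 share a run of 85 identical bases upstream, so they are not clearly independent cases of the spacing. GGAACNCG was also held by 26 of 129 snRNA genes (20.2%), against 0.712% of all genes and 6.65% of snoRNA genes. Its partner TGTCGGC was held by 4.65% of snRNA genes, against 7.23% of snoRNA genes. The spacing was listed for snoRNA genes only.

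Among snoRNA genes without a reproducible peak, candidate summits were counted by kind of word, without a test. A pooled candidate summit lay in the window of 23 of 44 such genes with a box word only (52.3%), 7 of 25 with a spaced word only (28%) and 74 of 233 with none of the 4 (31.8%), beside 21.4% of all genes. In replicate 1 the counts were 24, 10 and 77, and in replicate 2 they were 22, 5 and 47.

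The 8 words listed with the design gave a description of the same region. GTTCGA, the box B core of tRNA genes, which overlaps GTTCNANNC, was held by 9 of 44 genes with a peak (20.5%), 40 of 346 snoRNA genes (11.6%) and 5.41% of all genes, and by none of the 33 opposite-strand genes. TGCGC was held by 18 of 44 (40.9%) against 23.4% of snoRNA genes, 22.2% of tRNA genes, 36.4% of snRNA genes and 8.70% of all genes. GTCTC was held by 21 of 44 (47.7%) against 31.8%, 30.2%, 31.8% and 17.6% in the same order. TAAT, the core of many homeodomain binding sites, went the other way, with 17 of 44 (38.6%) against 66.5% of snoRNA genes and 86.1% of all genes. CTGCGTC was held by 5 of 44 (11.4%) against 4.62% of snoRNA genes and 1.71% of all genes. GAGAGAG was held by 5 of 44 (11.4%) against 5.78% and 3.50%. TATAAA was held by 9 of 44 (20.5%) against 14.5% and 24.97%, and TGATAA by 4 of 44 (9.09%) against 11.27% and 18.4%. The shares were not adjusted for base composition, on which matches to AT-rich or GC-rich words depend. A match is letters in a window, not a site.

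Genes for the proteins that work with snoRNAs were looked at beside them. All 13 listed genes of snoRNA ribonucleoproteins and the nucleolus were found, and 2 had a reproducible summit in the window, beside 2.39% of protein-coding genes. fib-1, which encodes fibrillarin, the methyltransferase of box C/D particles, had 39.5 (28.4 and 11.1 in replicates 1 and 2) at −107 bp. ruvb-2, an AAA+ ATPase gene of the assembly machinery, had 31.4 (24.5 and 9.82) at −163 bp. Its partner ruvb-1 reached the strongest entries of replicate 1 (21.2, rank 746) but not the reproducible list. A pooled candidate summit lay at 11 of the 13, beside 25.5% of protein-coding genes and 21.4% of all genes, and garr-1 had none in any list.

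Few of the genes could be sorted by their boxes. By letters alone, with TGATGA in the first 20 bases and CTGA in the last 20 taken as box C/D and ACA in the last 6 as box H/ACA, 6 hosted, 3 opposite-strand and 5 intergenic genes were of the C/D form. The H/ACA form was met by 58, 5 and 13, and 119, 25 and 106 met neither, so the box form of most genes is unknown. A reproducible peak was found at 5 of 14 genes of the C/D form, 6 of 78 of the H/ACA form and 33 of 254 of neither. The 6 partly overlapping genes were included. Beside these stand 12.7% of all snoRNA genes and 1.63% of all genes. These counts were not tested, and a match by letters alone does not show a true box.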

How the data were processed

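Whole-worm ChIP-seq was analysed from 4 lists of peaks on ce11 in 2 samples of 1 group. Per the text files deposited with the lists, the authors gave a signal score for each entry and the offset of its summit. The reproducible list is the authors' list past an irreproducible discovery rate threshold, and the candidate lists were called on pooled and single replicates. Not given in the sources used here are aligner, peak caller and threshold. A control was not used here, and read depth is unknown. A list's length and scale depend on these steps, so scores were not compared between lists. The lists on ce10 were not used.

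From these, summits were placed in windows around Ensembl release 115 gene starts. Loci of 3 classes were compared by two-sided Fisher's exact tests with Benjamini-Hochberg adjustment over 3 pairs and a threshold of 0.05. Shares have exact Clopper-Pearson 95% intervals and differences have Newcombe intervals, which cover counting error only. Sequence words were counted on both strands, and second copies were found with BLAST 2.17.0 at 95% identity over 100 bp. Python 3.11.15, NumPy 2.4.6, SciPy 1.17.1, statsmodels 0.14.6 and matplotlib 3.10.9 were used, and the scoring and tests were tested on simulated data. The genes named are the 8 with the highest signal in each class, their hosts, genes that share their summit, and listed snoRNA protein genes with a reproducible summit or one among the strongest entries of a candidate list, cut to the length of the reproducible list. Other snoRNA genes named were chosen after their values were seen. The members, classes and lists were chosen with earlier results of these data known. The 4 added words, their region and the alternative without second copies were chosen after seeing the data.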

Additional observations from a re-analysis of the deposited data

How the results depend on the processing

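The share of snoRNA genes with a reproducible peak, 12.7%, was 17.3% with a window of 1000 bp upstream and 200 bp downstream, and 6.65% when peaks below the median signal were dropped. From the strongest entries of a single replicate it was 9.25% without replicate 1 and 11.8% without replicate 2. The excess of intergenic over hosted loci kept its direction in all 13 alternatives (1.14 to 11.1 points, adjusted exact p from 0.0165 to 0.836). It passed the threshold with the smaller window (9.74 points) and without the X chromosome (11.1 points). The difference of intergenic minus opposite-strand loci, 2.12 points, turned negative in 5 of 13 alternatives, none of which passed. It was −5.24 points for peaks at or above the median signal, −0.777 with genes wholly in introns, −1.65 without windows that meet a coding-gene window, and −5.95 to −5.04 without replicate 1 or 2. Opposite-strand loci exceeded hosted loci by 3.50 to 8.99 points in all 13 alternatives, with adjusted exact p from 0.275 to 0.626. The alternative with the strongest pooled candidates repeated the main counts, since its entries are the same peaks. The 13 alternatives share most of their calls, so their agreement in direction is not independent support. Leaving out genes with a second copy, an alternative added after seeing the data, gave 12.99% and differences of 9.06, 0.412 and 8.65 points. The causes were not tested. No paired analysis was possible because there is 1 group. Depth is unknown, so absence from a list does not show absence of binding.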
